A study of Mus musculus with 4 samples.

Results

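Solute carriers (SLC) are among the largest groups of membrane transport proteins in mammals, and are numbered by family. Carriers of the plasma membrane bring amino acids, sugars, vitamins and ions into the cell, others serve the lysosome, Golgi or synaptic vesicles, and the SLC25 family moves metabolites across the inner mitochondrial membrane. Embryonic stem cells (ESCs) divide fast, and uptake of amino acids such as glutamine, cystine and leucine is known to feed their growth. The genes described here are those whose symbol has the form Slc, a family number, the letter a and a member number. Slc2a1, Slc2a3, Slc16a1, Slc16a3, Slc22a18 and Slc25a31 were left out. The pattern found 218 of the 14099 rows of the deposited tables, and 179 of them reached 1 RPKM (reads scaled to transcript length and to the mapped reads of the library) in at least 2 of the 4 libraries. Rows of the letter branches other than a, such as most of the SLC35 family, were not part of the choice.

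The 4 libraries held polyadenylated RNA of mouse ESCs, in pairs of wild type (WT, n = 2) and Naa10-KO (knockout, n = 2). Naa10 is the catalytic subunit of NatA, which acetylates the N-termini of many proteins, and the series title asks about its role in DNA methylation and imprinting. All lines came from blastocysts of C57BL/6 females heterozygous for the Naa10 knockout and WT males of the distant strain JF1, and WT lines were littermates. All cells grew in serum-free N2B27 medium with LIF and inhibitors of Mek and Gsk3, first over irradiated fibroblast feeders (5 passages) and then off them (5 passages). Whether the biological replicates of a genotype are separate lines is not stated, so p-values measure only the spread between these libraries, which may be technical.

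The Naa10 row, joined with its neighbour Renbp, stood at 105 and 106 RPKM in the WT pair and at 28.9 and 34.4 RPKM in the knockout pair. The 10 ESC markers were all present. Their summed levels were 4950 and 5040 RPKM in the WT pair and 4200 and 5080 RPKM in Naa10-KO replicates 1 and 2. The largest row, Dppa5a joined with Ooep, had 2476 and 2578 RPKM in the WT pair and 1698 and 2018 RPKM in the knockout pair. Naa10-KO replicate 1 lay below both WT libraries in 7 of 10 rows and above in 3, beside 54.6% and 38.3% of all tested rows. Replicate 2 lay above both in 8 and below in 1, beside 41.8% and 48.3%. Fibroblast feeder markers stood apart in Naa10-KO replicate 1, where 15 of the 17 listed rows were highest, while 16 were lowest in replicate 2. Of the 16 tested rows, replicate 1 lay above both WT libraries in 14 (87.5%, against 38.3% of all tested rows). Replicate 2 lay below both in 15 (93.8%, against 48.3%). The sum of the feeder markers was 150 and 158 RPKM in WT, 531 RPKM in Naa10-KO replicate 1 and 103 RPKM in replicate 2. The largest values in replicate 1 were Tagln (192 RPKM, against 19.7 and 20.2 RPKM in WT) and Acta2 (132 RPKM, against 26.1 and 26.4 RPKM). Lum and Pdgfrb lay below WT there. No marker was at 0 in any library. Trophoblast markers summed to 49.7 and 45.2 RPKM in the WT pair and to 102 and 84.2 RPKM in the knockout pair, and primitive endoderm markers to 82.0 and 76.4 RPKM against 96.1 and 83.7 RPKM. In bulk RNA, fewer cells of a type and less RNA per cell cannot be told apart. RPKM hide the depth, but the smallest values in rows of up to 75 nt were taken as single reads. Relative to WT replicate 1, the most common ratio was 1.02 for WT replicate 2 (10 of 15 length classes). It was 1.46 for Naa10-KO replicate 1 (10 of 14) and 1.68 for replicate 2 (7 of 14), so these depths are rough.

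Promoter windows are shown first for the amino acid carriers that matched an element of the amino acid response, and for the zinc carrier Slc30a1. Amino acid shortage acts through the transcription factor ATF4, which binds composite elements with the core TGATGNAA, and zinc acts through MTF1, which binds metal response elements with the core TGCACNC or TGCGCNC. RefSeq windows of 300 bases (GRCm38.p6, from 250 bases before to 50 after a gene's start) were at hand for 132 of the 180 carrier symbols in the kept rows. On either strand, TGATGNAA was found for 5 of these 132 genes (3.79%) and for 4.51% of all 27025 genes in the promoter table. Of 21 amino acid carriers with a window, 3 held it (14.3%), namely Slc7a11 (cystine uptake), Slc1a4 (small neutral amino acids) and Slc7a7 (the y+L light chain for cationic amino acids). TGCACNC or TGCGCNC was found for 8 of 17 carriers of trace metals (47.1%), for 52 of the 132 carrier genes (39.4%) and for 28.2% of all genes. The windows of the 3 amino acid carriers and of Slc30a1, the zinc exporter of the plasma membrane, follow 5′ to 3′ with the matching letters in capitals. They come from the C57BL/6 reference, and the deposited values belong to another build (mm9).
Slc7a11, chr3:50443564-50443863, minus strand: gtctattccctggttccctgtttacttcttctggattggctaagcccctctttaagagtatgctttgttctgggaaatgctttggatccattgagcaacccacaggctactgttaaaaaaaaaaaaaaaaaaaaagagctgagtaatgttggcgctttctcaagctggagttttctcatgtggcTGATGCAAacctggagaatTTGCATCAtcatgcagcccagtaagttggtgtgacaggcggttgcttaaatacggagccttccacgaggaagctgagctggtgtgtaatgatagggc
Slc1a4, chr11:20332664-20332963, minus strand: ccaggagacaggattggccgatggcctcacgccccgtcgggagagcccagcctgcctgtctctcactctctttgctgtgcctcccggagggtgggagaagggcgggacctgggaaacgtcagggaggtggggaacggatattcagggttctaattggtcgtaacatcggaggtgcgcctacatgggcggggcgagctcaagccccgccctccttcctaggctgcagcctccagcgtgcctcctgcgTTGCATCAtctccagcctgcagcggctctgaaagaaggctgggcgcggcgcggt
Slc7a7, chr14:54417895-54418194, minus strand: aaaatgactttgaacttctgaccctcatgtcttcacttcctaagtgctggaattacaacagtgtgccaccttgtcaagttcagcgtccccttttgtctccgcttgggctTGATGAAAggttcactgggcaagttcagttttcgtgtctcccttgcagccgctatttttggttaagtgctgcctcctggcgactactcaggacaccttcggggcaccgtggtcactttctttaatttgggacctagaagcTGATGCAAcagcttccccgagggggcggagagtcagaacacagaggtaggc
Slc30a1, chr1:191906531-191906830, plus strand: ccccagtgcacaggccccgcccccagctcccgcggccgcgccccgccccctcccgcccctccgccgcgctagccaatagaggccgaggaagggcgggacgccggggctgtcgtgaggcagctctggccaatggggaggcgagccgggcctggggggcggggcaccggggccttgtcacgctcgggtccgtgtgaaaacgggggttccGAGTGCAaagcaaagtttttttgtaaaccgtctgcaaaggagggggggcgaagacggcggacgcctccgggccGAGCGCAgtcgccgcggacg

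In the Slc7a11 window the matches began 66 and 47 bases before the start, on opposite strands. In the Slc1a4 window the single match began 4 bases before the start and ran across it. Slc7a7 has 5 windows in the RefSeq table, and the one shown held 2 matches. They began 141 bases and 1 base before the start, and the nearer one ran across it. Slc7a11, Slc1a4 and Slc7a7 had log2 differences of 0.61, 0.11 and 0.09 (SE 0.14, 0.14 and 0.21). Of them, Slc7a11 alone had groups without overlap. Slc7a11 had 7.21 and 7.39 RPKM in the WT pair and 12.99 and 10.5 RPKM in the knockout pair, so both Naa10-KO libraries were above both WT libraries. Slc1a4 had 6.11 and 5.82 RPKM in the WT pair and 5.87 and 7.26 RPKM in the knockout pair, and Slc7a7 had 38.7 and 43.9 RPKM in the WT pair and 52.5 and 36.5 RPKM in the knockout pair, so for both genes the groups overlapped. Slc30a1 had 18.9 and 18.9 RPKM in the WT pair and 9.09 and 16.6 RPKM in the knockout pair, both below WT and far apart from each other. A match of letters is a description of the window and not a binding site.

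By summed level, mitochondrial carriers (1550 and 1600 RPKM) and amino acid carriers (872 and 873 RPKM) stood highest in the WT libraries, through a few abundant rows. RPKM are scaled to length, so levels of different genes can be set side by side. The mean WT level of the 179 rows had a median of 5.97 RPKM, against 10.2 RPKM over all 11912 tested rows, and 10 rows reached 100 RPKM. These 10 rows held 51.5% of the summed WT level of all carrier rows. Slc25a5, an ADP/ATP translocase, was highest, with 403 and 426 RPKM in the WT pair and 465 and 592 RPKM in the knockout pair. Slc25a3, the mitochondrial phosphate carrier, was next with 334 and 350 RPKM in the WT pair and 369 and 305 RPKM in the knockout pair. Then came Slc38a2, a sodium-coupled carrier of small neutral amino acids, with 212 and 218 RPKM in the WT pair and 143 and 175 RPKM in the knockout pair. Slc25a4, the other abundant ADP/ATP translocase, had 140 and 152 RPKM in WT. Slc3a2, the heavy chain that carries Slc7a5 and other light chains to the membrane, had 141 and 136 RPKM, and Slc29a1, the equilibrative nucleoside transporter, had 136 and 138 RPKM. The WT values of Slc25a4, Slc3a2, Slc29a1 and Slc25a39 lay within 131 to 152 RPKM, so neighbours in this order were close to each other.

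**Figure D1:**
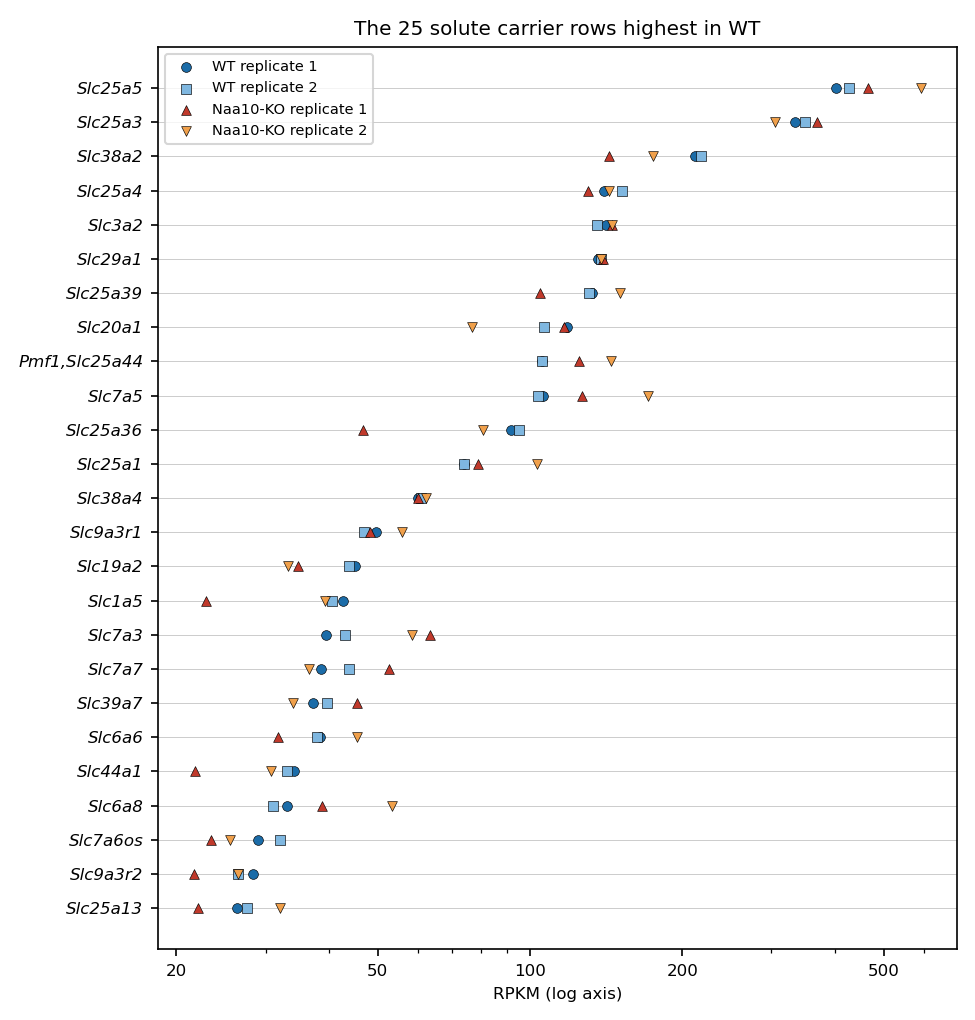
RPKM on a log axis in each of the 4 libraries (symbols) for the 25 carrier rows with the highest mean WT level, from Slc25a5 at 403 and 426 RPKM in WT downwards. The WT symbols nearly coincide in most rows, while the Naa10-KO symbols are spread on both sides of them.

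None of the 179 carrier rows passed the test between Naa10-KO and WT. Limma on log2(RPKM + 1), adjusted by Benjamini-Hochberg over all 11912 tested rows, called 0 carrier rows at an adjusted p under 0.05, while it called 0.764% of all tested rows. This background rested on few rows, 91 in number, and went to 0 when rows at 0 and rows of small RNAs were left out and to 40 without the filter on low values. The smallest adjusted p among the carriers was 0.0769, for Slc23a1. At an unadjusted p under 0.05 there were 43 carrier rows (24%, of which 19 were higher and 24 lower in Naa10-KO), close to the 22.1% of all tested rows. Adding 1 to each value shrinks the fold changes of weakly expressed genes. The median log2 difference over the carriers was -0.05, against -0.06 over all tested rows. With 2 libraries per group and Naa10-KO libraries that lay far apart, an adjusted p above the threshold does not show that a level was the same.

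The knockout pair exceeded the WT pair, without overlap, in 48 of the 179 carrier rows (26.8%), against 24.4% of all tested rows. They lay below both in 63 rows (35.2%), against 34.9% of all tested rows. The shares of the carriers were thus near the background in both directions. Centring each library on its median turned the order of these counts, to 58 rows above and 53 below, beside 30.9% and 27.4% of all tested rows. Taken alone, Naa10-KO replicate 1 was above both WT libraries in 67 carrier rows and below both in 100, beside 38.3% and 54.6% of all tested rows. Replicate 2 was above in 83 and below in 81, beside 41.8% and 48.3%. In 42 rows (23.5%, against 25.3% of all tested rows) the Naa10-KO libraries fell on opposite sides of both WT libraries, with replicate 2 the higher in 29 and replicate 1 in 13. Over all tested rows, replicate 2 was likewise the more often higher one, in 1754 rows against 1254 for replicate 1. The median absolute log2 gap between replicates over the carriers was 0.06 in WT and 0.28 in Naa10-KO.

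By substrate, the medians were small and differed between the Naa10-KO libraries. Of the 8 substrate classes with at least 5 kept rows, the carriers of nucleotide sugars and acetyl-CoA had the highest median log2 difference from WT (0.13 over 6 rows, 0.24 in replicate 1 and 0.02 in replicate 2), and the carriers of amino acids and derivatives followed (0.09 over 32 rows). The carriers of inorganic ions had the lowest median (-0.14 over 27 rows), followed by the carriers of lipids, peptides and organic ions (-0.10 over 20 rows) and the mitochondrial carriers (-0.09 over 35 rows). Trace metals and heme (0.03 over 23 rows), vitamins, nucleosides and choline (0.04 over 17 rows) and sugars and polyols (-0.06 over 11 rows) lay between them. For amino acid carriers the median was near 0 in replicate 1 and 0.16 in replicate 2. The class median took opposite signs in the Naa10-KO libraries for 4 other classes. It was -0.25 in replicate 1 and 0.12 in replicate 2 for sugars, -0.16 and 0.17 for vitamins and nucleosides, -0.15 and 0.01 for lipids and organic ions, and 0.05 and -0.03 for trace metals. The median of all tested rows was -0.08 in replicate 1 and -0.02 in replicate 2.

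**Figure D2:**
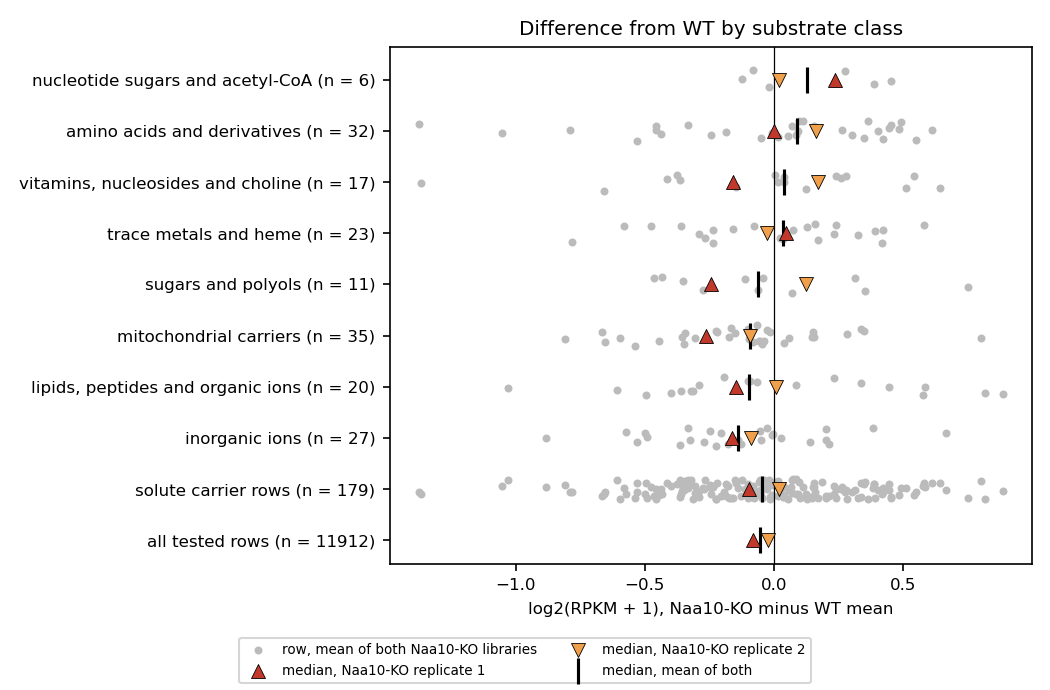
Difference from the WT mean on the log2(RPKM + 1) scale for each carrier row (grey, mean of both Naa10-KO libraries) by substrate class, with class medians for both libraries together (bars) and for Naa10-KO replicates 1 and 2 (triangles). The lowest rows give all 179 carriers and the medians of all 11912 tested rows, and the class medians lie between -0.14 and 0.13.

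Among amino acid carriers, Slc7a3, Slc7a1 and Slc7a11 of the SLC7 family were higher in both knockout libraries, and the glutamate transporter genes Slc1a1 and Slc1a3 were lower, with no row past the threshold. Of the 32 rows, both Naa10-KO libraries lay above WT in 12 (37.5%, against 24.4% of all tested rows) and below in 9 (28.1%, against 34.9%). Slc7a3, a carrier of arginine and lysine, had 39.6 and 43.1 RPKM in the WT pair and 63.4 and 58.5 RPKM in the knockout pair (log2 difference 0.55, SE 0.09, limma adjusted p = 0.111). Its relative Slc7a1 had 20.2 and 19.3 RPKM in the WT pair and 26.6 and 22.6 RPKM in the knockout pair, but Slc7a2, also a cationic carrier, was lower, at 1.38 and 1.31 RPKM in the WT pair and 1.00 and 0.951 RPKM in the knockout pair. Slc7a11, the cystine and glutamate exchanger, had the largest upward difference of the class (0.61, SE 0.14, limma adjusted p = 0.141). Slc7a5, which brings in leucine and other large neutral amino acids, had 106 and 104 RPKM in the WT pair and 127 and 171 RPKM in the knockout pair. Its partner Slc3a2 differed little, with 145 and 145 RPKM in the knockout pair (log2 difference 0.07, SE 0.06). Slc6a8, the creatine carrier, had 33.1 and 31.1 RPKM in the WT pair and 38.8 and 53.4 RPKM in the knockout pair, and Slc38a1, a relative of Slc38a2, had 14.8 and 15.04 RPKM against 24.3 and 17.7 RPKM.

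Slc7a14, a lysosomal member of the SLC7 family, went the other way from Slc7a3 and Slc7a11. It had 8.29 and 7.98 RPKM in the WT pair and 2.13 and 2.97 RPKM in the knockout pair, or 31.3% of WT (log2 difference -1.37, SE 0.16, limma adjusted p = 0.0841). The Naa10-KO values were well apart from WT. The high-affinity glutamate transporter gene Slc1a3 had 5.06 and 5.51 RPKM in the WT pair and 2.35 and 2.93 RPKM in the knockout pair (log2 difference -0.79, SE 0.14, limma adjusted p = 0.116). Slc1a1, another glutamate transporter, had 2.69 and 2.68 RPKM in the WT pair and 0.473 and 1.14 RPKM in the knockout pair (log2 difference -1.05, SE 0.22, limma adjusted p = 0.136). Slc1a5, the main glutamine carrier of the family, had 42.6 and 40.6 RPKM in WT, 22.9 RPKM in Naa10-KO replicate 1 and 39.4 RPKM in replicate 2, so only replicate 1 lay far from WT. Slc38a2 was at 74.0% of WT (log2 difference -0.44, SE 0.12, limma adjusted p = 0.165). For Slc38a3 and Slc38a5, which carry glutamine, the WT values fell between the knockout values. Slc38a3 had 9.71 and 8.78 RPKM in the WT pair against 3.41 and 11.6 RPKM, and Slc38a5 had 7.14 and 6.48 RPKM against 4.67 and 11.2 RPKM. Slc38a4, the paternally expressed imprinted member of the family, had 60.1 and 60.9 RPKM in the WT pair and 60.0 and 62.1 RPKM in the knockout pair.

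**Figure D3:**
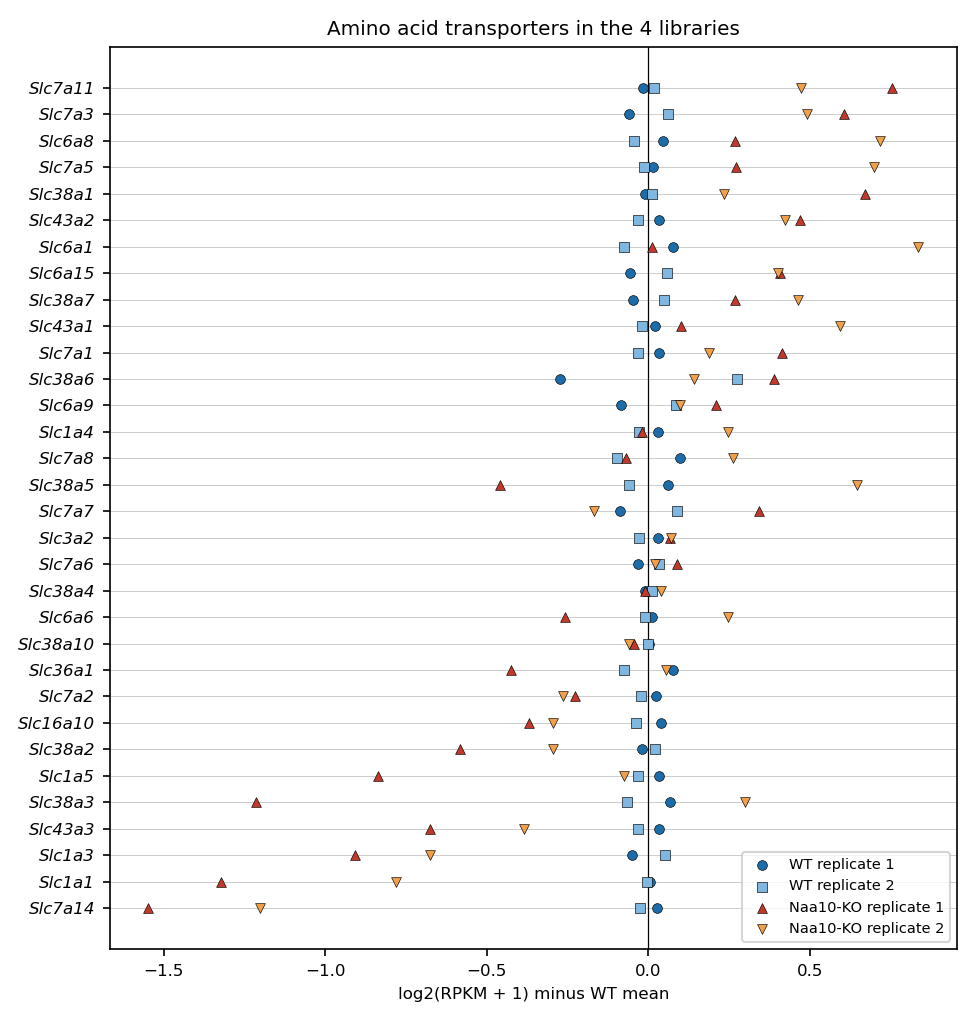
Level of each of the 32 amino acid carrier rows in the 4 libraries as log2(RPKM + 1) minus the WT mean of the row. Rows run from Slc7a11 at the top (0.61) to Slc7a14 at the bottom (-1.37), and in rows such as Slc38a5 and Slc38a3 the Naa10-KO triangles lie on opposite sides of the WT symbols.

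Vitamin and nucleoside carriers included the carrier row with the smallest p. Slc23a1, which takes up ascorbate together with sodium, had 11.4 and 11.4 RPKM in the WT pair and 3.31 and 4.36 RPKM in the knockout pair, or 33.6% of WT (log2 difference -1.37, SE 0.15, limma adjusted p = 0.0769). Both Naa10-KO values lay far below WT, and the WT values nearly coincided. The span of Slc23a1 overlaps that of Paip2 in RefSeq, and Paip2 had 132 and 132 RPKM in the WT pair and 102 and 96.7 RPKM in the knockout pair. Whether reads of the overlapping genes were told apart is not known, since no strand-specific protocol is stated. The other ascorbate carrier, Slc23a2, had 10.7 and 10.9 RPKM in the WT pair and 12.4 and 13.8 RPKM in the knockout pair. In WT the levels of both genes were thus alike, and in Naa10-KO they lay apart.

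The carriers of folate and thiamine in the SLC19 family also lay on opposite sides of WT. Slc19a1, the reduced folate carrier, had 4.12 and 4.66 RPKM in the WT pair and 7.94 and 6.88 RPKM in the knockout pair (1.69-fold, log2 difference 0.64, SE 0.13, limma adjusted p = 0.133). Slc19a2, a thiamine carrier, had 45.1 and 43.9 RPKM in the WT pair and 34.8 and 33.3 RPKM in the knockout pair (76.5% of WT, log2 difference -0.38, SE 0.07, limma adjusted p = 0.129). The groups did not overlap in either gene. Slc29a1 was near WT, at 139 and 138 RPKM in the knockout pair (log2 difference 0.02, SE 0.06). Slc46a3, a lysosomal carrier, was high in a single library, with 1.36 and 1.42 RPKM in WT, 4.25 RPKM in Naa10-KO replicate 1 and 1.22 RPKM in replicate 2.

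**Figure D4:**
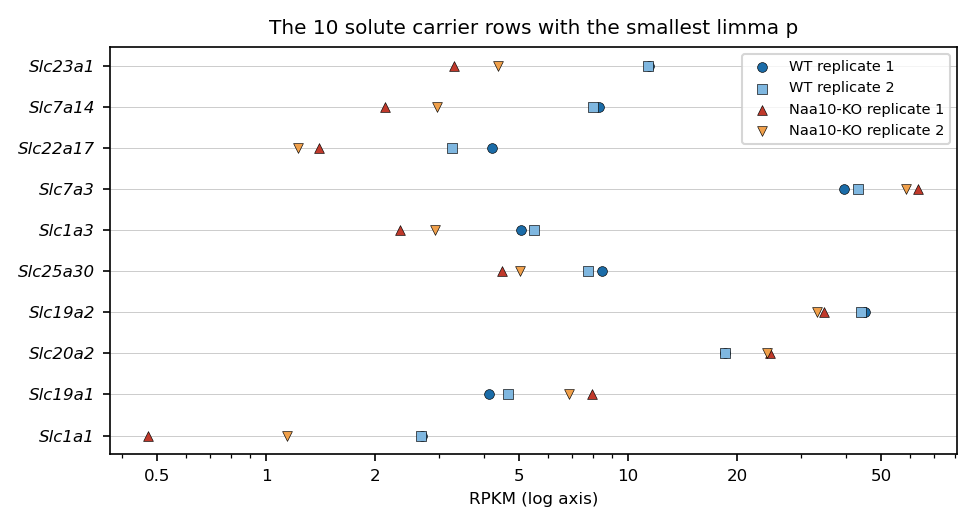
RPKM on a log axis in the 4 libraries (symbols) for the 10 carrier rows with the smallest limma p, none of which passed after adjustment over all tested rows. In each row both Naa10-KO symbols lie on one side of both WT symbols, lower in 7 rows and higher for Slc7a3, Slc20a2 and Slc19a1.

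Of the 35 mitochondrial carrier rows, both Naa10-KO libraries lay below WT in 15 (42.9%, against 34.9% of all tested rows) and above in 6 (17.1%, against 24.4%), and none passed limma's threshold, which 0.764% of all tested rows passed. Slc25a30, an inner-membrane carrier related to the uncoupling proteins, had 8.45 and 7.77 RPKM in the WT pair and 4.47 and 5.01 RPKM in the knockout pair (log2 difference -0.67, SE 0.12, limma adjusted p = 0.117). Slc25a36, a carrier of pyrimidine nucleotides, had 91.8 and 95.2 RPKM in WT, 46.8 RPKM in Naa10-KO replicate 1 and 80.9 RPKM in replicate 2. Slc25a37, which brings iron into mitochondria for heme, had 4.70 and 3.64 RPKM in the WT pair and 2.49 and 2.05 RPKM in the knockout pair. The related iron carrier Slc25a28 had 12.98 and 12.1 RPKM against 8.75 and 10.5 RPKM. Slc25a39, which serves mitochondrial glutathione import, lay on both sides of WT, with 132 and 131 RPKM in the WT pair and 105 and 151 RPKM in the knockout pair.

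The abundant mitochondrial carriers above WT included Slc25a5 (1.27-fold, log2 difference 0.34, SE 0.14, limma adjusted p = 0.264) and the citrate carrier Slc25a1, with 74.0 and 74.2 RPKM in the WT pair and 79.1 and 103 RPKM in the knockout pair. The row of Slc25a44, a carrier of branched-chain amino acids, was joined with Pmf1, so its own level cannot be separated. That row had 105 and 105 RPKM in the WT pair and 125 and 145 RPKM in the knockout pair. The largest upward difference belonged to Slc25a24, a carrier of ATP-Mg and phosphate, with 1.09 and 1.25 RPKM in WT, 5.20 RPKM in Naa10-KO replicate 1 and 1.302 RPKM in replicate 2 (adjusted p = 0.421 in limma). Replicate 1, where the summed feeder markers stood at 531 RPKM, carried this difference, and the part of feeder cells in it was not tested. Slc25a35 was the only kept carrier row listed at 0 in a library, with 3.19 and 3.07 RPKM in WT, 0 in Naa10-KO replicate 1 and 4.55 RPKM in replicate 2. An exact 0 in these tables can be a failed estimate, so no fold is given for this gene.

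Of the 27 rows of carriers of inorganic ions, both Naa10-KO libraries lay above WT in 3 (11.1%) and below in 11 (40.7%), against 24.4% and 34.9% of all tested rows. The phosphate importers of the SLC20 family had different patterns. Slc20a2 had 18.5 and 18.5 RPKM in the WT pair and 24.6 and 24.2 RPKM in the knockout pair, with replicates close together in both groups (log2 difference 0.38, SE 0.08, limma adjusted p = 0.132). Slc20a1, the more abundant one, had 118 and 107 RPKM in WT, 116 RPKM in Naa10-KO replicate 1 and 76.8 RPKM in replicate 2, so the groups overlapped. Slc9a5, a sodium-proton exchanger, had 4.33 and 4.004 RPKM in the WT pair and 1.05 and 2.82 RPKM in the knockout pair. Slc12a7, a potassium-chloride cotransporter, had 27.6 and 25.4 RPKM in WT, 12.5 RPKM in Naa10-KO replicate 1 and 26.97 RPKM in replicate 2. Slc26a2, a sulfate carrier needed for cartilage matrix, had 7.65 and 7.05 RPKM in WT, 16.4 RPKM in Naa10-KO replicate 1 and 9.07 RPKM in replicate 2, where the higher value again belonged to the library with high feeder markers and their part was not tested.

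Among the 23 rows for trace metals and heme, 8 lay above WT in both Naa10-KO libraries (34.8%, against 24.4% of all tested rows) and 8 below (34.8%, against 34.9%). The zinc carriers of the SLC30 and SLC39 families had members on both sides, such as Slc30a7 (higher) and Slc30a6 (lower), or Slc39a4 (higher) and Slc39a9 (lower). Slc30a2, a vesicular zinc transporter, had 2.48 and 2.63 RPKM in the WT pair and 0.691 and 1.53 RPKM in the knockout pair. Slc30a1 was at 67.9% of WT (log2 difference -0.58, SE 0.30, limma adjusted p = 0.332). Slc31a1, the main copper importer, had 19.6 and 19.2 RPKM in the WT pair and 12.1 and 15.5 RPKM in the knockout pair. Slc39a1, a zinc importer of the plasma membrane, had 14.1 and 14.8 RPKM in the WT pair and 20.5 and 18.8 RPKM in the knockout pair (log2 difference 0.42, SE 0.10, limma adjusted p = 0.142). Slc39a10 had 14.4 and 14.8 RPKM against 17.2 and 19.96 RPKM. Slc39a7 of the endoplasmic reticulum, the most abundant member, lay on both sides of WT (37.2 and 39.6 RPKM in WT, 45.4 and 33.99 RPKM in the knockout pair). Slc39a14, the next, was near WT (20.5 and 18.9 RPKM in WT, 21.4 and 21.7 RPKM in the knockout pair). Slc40a1, the iron exporter ferroportin, had 1.09 and 1.04 RPKM in the WT pair and 2.81 and 1.501 RPKM in the knockout pair.

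The carriers of sugars and polyols gave 11 kept rows, with the glucose transporters Slc2a1 and Slc2a3 left out. Both Naa10-KO libraries lay above WT in 3 (27.3%, against 24.4% of all tested rows) and below in 4 (36.4%, against 34.9%). Slc5a1, a sodium-glucose cotransporter, had 1.21 and 1.40 RPKM in the WT pair and 3.33 and 2.45 RPKM in the knockout pair (2.22-fold, log2 difference 0.75, SE 0.17, limma adjusted p = 0.139). Slc37a3 had 6.81 and 6.34 RPKM in the WT pair and 4.54 and 4.67 RPKM in the knockout pair (log2 difference -0.43, SE 0.11, limma adjusted p = 0.153). The myo-inositol carrier gene Slc5a3 shares its row with Mrps6, at 24.6 and 24.8 RPKM in the WT pair and 21.3 and 17.2 RPKM in the knockout pair. Slc50a1, the mammalian SWEET sugar carrier, had 12.6 and 11.6 RPKM in WT, 9.34 RPKM in Naa10-KO replicate 1 and 17.3 RPKM in replicate 2. Slc2a8, a glucose transporter of internal membranes, had 11.8 and 10.2 RPKM in the WT pair and also lay on both sides, at 7.03 and 15.3 RPKM.

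Of the 6 rows for nucleotide sugars and acetyl-CoA, 3 lay above WT in both Naa10-KO libraries (50%, against 24.4% of all tested rows) and 1 below (16.7%, against 34.9%). Slc35a2, which carries UDP-galactose into the Golgi, was highest relative to WT (1.501-fold). It had 2.90 and 2.81 RPKM in the WT pair and 4.48 and 4.09 RPKM in the knockout pair (log2 difference 0.45, SE 0.11, limma adjusted p = 0.153). Slc35a4 had 24.5 and 24.3 RPKM in the WT pair and 35.7 and 29.02 RPKM in the knockout pair. Slc35a1, the CMP-sialic acid carrier, had 6.18 and 6.24 RPKM in the WT pair against 6.28 and 5.38 RPKM, and Slc35a3 had 5.09 and 5.05 RPKM against 5.02 and 4.15 RPKM. Slc33a1, which moves acetyl-CoA into the endoplasmic reticulum, had 3.56 and 3.46 RPKM in the WT pair and 5.09 and 3.88 RPKM in the knockout pair.

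Carriers of lipids, peptides and organic ions had low levels, with a median WT level of 2.87 RPKM over 20 rows. Slc22a17, a receptor for lipocalin 2 that bears a carrier symbol, had 4.22 and 3.27 RPKM in the WT pair and 1.40 and 1.23 RPKM in the knockout pair, or 35.1% of WT (log2 difference -1.03, SE 0.15, limma adjusted p = 0.1004). The highest rows of the class were joined with other genes. The row of Slc27a5 and Zbtb45 had 13.4 and 13.3 RPKM in the WT pair and 29.1 and 20.2 RPKM in the knockout pair (log2 difference 0.82, SE 0.20, limma adjusted p = 0.150), and that of Slc10a3 and Ubl4 had 9.82 and 10.7 RPKM against 13.1 and 18.9 RPKM. Slc27a2, a fatty acid activating carrier, had 6.46 and 7.21 RPKM in the WT pair and was high in replicate 1 alone, at 14.5 RPKM against 6.32 RPKM in replicate 2. The feeder markers were high in that library too, and their part in this value was not tested.

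Only 3 carboxylate carriers were kept. Slc16a13 had 1.10 and 1.07 RPKM in the WT pair and 1.96 and 1.52 RPKM in the knockout pair, and Slc16a6 had 1.53 and 1.73 RPKM against 2.08 and 1.90 RPKM. Slc13a5, the plasma membrane citrate carrier, had 2.66 and 2.50 RPKM in WT, 1.31 RPKM in Naa10-KO replicate 1 and 5.09 RPKM in replicate 2. A further 5 kept rows bear a carrier's symbol but are not transporters. They include the scaffold genes Slc9a3r1 (49.6 and 46.95 RPKM in WT, 48.3 and 55.7 RPKM in the knockout pair) and Slc9a3r2, and Slc7a6os, which lies opposite Slc7a6, at 28.9 and 32.1 RPKM against 23.4 and 25.5 RPKM.

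The 39 carrier rows that were not kept were low. Of these, 31 stayed under 1 RPKM in every library, and 8 reached it in a single library. Around the threshold, Slc39a3 was kept with 0.966, 0.888, 1.58 and 1.00 RPKM in WT replicates 1 and 2 and Naa10-KO replicates 1 and 2, and Slc39a5 was not, with 1.10, 0.935, 0.743 and 0.852 RPKM. Slc15a3, a lysosomal peptide and histidine carrier, was at 2.65 RPKM in Naa10-KO replicate 1 and listed at 0 in the other libraries. Of the kept rows, 157 reached 1 RPKM in all 4 libraries, 16 in 3 and 6 in 2. Rows kept through a single group numbered 5, of which 3 were kept through WT and 2 through Naa10-KO.

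Genes that belong to the SLC superfamily under other names gave 19 tested rows, of which 0 passed limma (0.764% of all tested rows did) and 8 had an unadjusted p under 0.05 (42.1%, against 22.1%). Both Naa10-KO libraries lay above WT in 7 of them (36.8%, against 24.4% of all tested rows) and below in 10 (52.6%, against 34.9%). Mfsd5, which serves molybdate transport, had 18.5 and 17.9 RPKM in the WT pair and 36.3 and 30.7 RPKM in the knockout pair (log2 difference 0.84, limma adjusted p = 0.0938). Sfxn4, of the sideroflexin family of mitochondrial proteins, had 2.23 and 2.11 RPKM against 0.643 and 0.950 RPKM, and the serine carrier Sfxn1 had 31.8 and 31.97 RPKM against 17.5 and 23.4 RPKM. The pyruvate carrier subunits Mpc1 (18.03 and 16.8 RPKM in WT, 12.5 and 13.9 RPKM in the knockout pair) and Mpc2 (11.3 and 11.8 RPKM in WT, 9.36 and 8.73 RPKM in the knockout pair) were both lower than WT. Ucp2, the most abundant of the list, lay on both sides, at 51.9 and 48.1 RPKM in WT, 24.01 RPKM in Naa10-KO replicate 1 and 64.6 RPKM in replicate 2.

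Among 10 tested rows of carrier chaperones and accessory proteins, 0 passed limma (0.764% of all tested rows did) and 3 had an unadjusted p under 0.05, beside 22.1% of all tested rows. Both Naa10-KO libraries lay above WT in 4 and below in 3, beside 24.4% and 34.9% of all tested rows. Bsg, the chaperone of lactate carriers, was the most abundant, with 243 and 248 RPKM in the WT pair and 299 and 298 RPKM in the knockout pair, and its relative Emb had 37.2 and 38.6 RPKM against 51.6 and 44.8 RPKM. Txnip, which limits glucose uptake, had 53.1 and 47.9 RPKM in the WT pair and 27.7 and 23.01 RPKM in the knockout pair (log2 difference -0.97, limma adjusted p = 0.0905). Mtf1, the zinc-sensing transcription factor named above, had 3.97 and 3.78 RPKM in the WT pair and 3.85 and 3.88 RPKM in the knockout pair.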

How the data were processed

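Polyadenylated RNA of 4 mouse ESC libraries (2 WT, 2 Naa10-KO) was measured by sequencing. The values are RPKM, as the authors deposited them in 1 table per library, per the file headers. Per the submitters' processing notes Cufflinks and bedtools were used with the mm9 build; the aligner was not given in the sources used here. Carrier rows were tested within a fit over the 11912 rows with a minimum of 2 libraries at 1 RPKM, with limma 3.58.1 (R 4.3.3) on log2(RPKM + 1), a pseudocount of 1, a mean-variance trend and Benjamini-Hochberg adjustment over all tested rows. Residual degrees of freedom were 2, plus 1.94 from the prior. The fit was tested on simulated data with the same spread in both genotypes, so the wider spread of the Naa10-KO libraries was not covered. Substrate classes follow the family number, with exceptions by symbol; Slc36a1os, Slc4a1ap and Slc2a4rg-ps were set outside them after the values were seen. Members and lists were chosen with earlier results of these data known.

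The rule for named genes took members past the threshold, the 2 rows highest in WT and the largest upward and downward rows of each class (mean of 2 RPKM or more, both Naa10-KO libraries on 1 side of WT), the 10 smallest p, the 5 widest Naa10-KO gaps across WT, rows at 0, and the highest row and the largest upward and downward rows of each related list. Other genes were named after their values were seen. Of the kept rows, 6 were joined with another gene, and 72 of 180 carrier symbols overlap another gene's span in RefSeq (GRCm38.p6). Alternatives covered the pseudocount, filters, scaling, library weights, a replicate block and each library left out. Tables were handled with pandas 2.3.3 in Python 3.11.15.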

Additional observations from a re-analysis of the deposited data

How the results depend on the processing

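No carrier row passed under any of the 8 other settings that kept all 4 libraries, among them the replicate block, a pseudocount of 0.1 and library weights by group. Of 96 counts and medians under these settings, 89 stayed within 1.5 times (counts) or within the spread between the Naa10-KO libraries (medians). Some of them could not move. The replicate block and the library weights leave every median and every count above or below WT as it was. A pseudocount cannot alter the counts above or below WT. With only rows of a mean of 5 RPKM or more, where fewer rows are tested, 29 of 103 carrier rows lay above and 30 below both WT libraries (26.5% and 33.5% of all rows then tested), and the median for lipids, peptides and organic ions was 0.14. Before centring, the library medians of all tested rows differed by -0.065 between Naa10-KO and WT. Centring removed this difference and so raised Naa10-KO against WT. The class medians became -0.0745 for inorganic ions and 0.0987 for trace metals (-0.0684 and 0.0934 with quantile normalisation). Centring also turned Slc25a3 to 0.0364. Of all tested rows, 40 were called with no filter and 0 by limma (2626 at an unadjusted p under 0.05) without rows at 0 and small RNA rows, in place of 91.

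With 1 library left out, a lone library takes its spread from the remaining pair, so carrier calls ranged from 0 without a WT library to 112 of 179 without Naa10-KO replicate 2, where 7081 of all 11912 rows were called. Rows above both WT libraries then ranged from 52 to 83 (27.9% to 41.8% of all rows) and rows below from 68 to 100 (38.6% to 54.6%); the median ranged from -0.26 to -0.0685 for mitochondrial carriers and from -0.0283 to 0.0495 for trace metals. The direction turned within these ranges for Slc12a7 (-1.03 to 0.0248), Slc13a5 (-0.63 to 0.76), Slc20a1 (-0.54 to 0.0505), Slc25a3 (-0.17 to 0.11), Slc25a35 (-2.05 to 0.43, where the lower value rests on the listed 0 and the pseudocount and is no fold), Slc35a1 (-0.18 to 0.0125), Slc38a3 (-1.21 to 0.30), Slc38a5 (-0.46 to 0.65), Slc39a7 (-0.17 to 0.24), Slc46a3 (-0.11 to 1.13) and Slc50a1 (-0.34 to 0.48); the cause was not tested. The rest of the 40 named carriers kept their direction.

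The labels number both genotypes 1 and 2, and do not say whether a shared number marks a shared litter, batch or day. Differences between replicates 1 and 2 correlated at -0.21 across rows between genotypes. This single contrast cannot decide whether the libraries were paired, and the main fit treated them as unpaired. With the replicate block, 44 rows of all tested were called in place of 91, and 0 carriers. Leaving out the joined rows moved neither the counts above and below WT nor the median over all carriers beyond these limits. Class medians were not computed without the joined rows. Classing Slc36a1os and Slc4a1ap by family number moved neither median concerned, those for amino acids and for inorganic ions. Both alternatives were chosen after seeing the data.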

Other observations

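ATP-binding cassette (ABC) transporters, which pump substrates with the energy of ATP, were set beside the carriers as another transporter family. Of 19 tested rows, 0 passed limma (0.764% of all tested rows did) and 2 had an unadjusted p under 0.05 (10.5%, against 22.1%). Both Naa10-KO libraries lay above WT in 3 (15.8%, against 24.4% of all tested rows) and below in 7 (36.8%, against 34.9%). Abcg2, a drug efflux pump known from stem cells, was the most abundant, with 24.2 and 25.4 RPKM in WT, 32.3 RPKM in Naa10-KO replicate 1 and 21.4 RPKM in replicate 2. Abcb1a, another drug efflux pump, had 12.99 and 12.5 RPKM in the WT pair and 6.94 and 8.92 RPKM in the knockout pair (log2 difference -0.63, limma adjusted p = 0.145), and its near relative Abcb1b had 11.2 and 11.5 RPKM against 14.4 and 11.5 RPKM. Abca1, which exports cholesterol, had 2.45 and 2.33 RPKM in the WT pair and 4.08 and 3.18 RPKM in the knockout pair (log2 difference 0.44). The summed level of the list was 172 and 170 RPKM in the WT pair and 160 and 167 RPKM in the knockout pair.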
